A study of Mus musculus with 12 samples.

Results

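*Malat1* and 7 other long noncoding RNAs of the mouse, *Neat1*, *Meg3*, *H19*, *Gas5*, *Snhg1*, *Snhg12* and *Kcnq1ot1*, were followed in bone-marrow-derived macrophages (BMDMs) and livers with and without the thyrotropin receptor gene *Tshr* in myeloid cells. The members were taken by gene symbol from the table of read counts, where each of the 8 had 1 row among 55335 genes. They were selected on their abundance, with their counts in these libraries known, so their levels are given as a description and were not tested. Not all of them were abundant. Among 9919 long noncoding genes ranked by mean CPM (counts scaled to the size of the library), *Malat1* and *Neat1* were 1st and 2nd in BMDMs and 9th and 4th in livers, and *Gas5* was 20th and 13th, whereas *Meg3*, *H19* and *Kcnq1ot1* were 91st, 99th and 105th in BMDMs and 395th, 279th and 272nd in livers. Of the 9919 genes, only 2972 had any count in BMDMs and 2620 in livers.

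The study compared *Tshr* f/f mice, which carry the floxed receptor gene and no Cre, with *Tshr* f/f, *Lyz2*-Cre mice (*Tshr* MKO), on a C57BL/6N background. Cre was driven by the *Lyz2* promoter, which is active in myeloid cells, so a liver also holds many cells in which the gene was not targeted, and the loxP sites flank the part of *Tshr* from exon 10 to the stop codon. BMDMs came from male mice that the labels give as 6 weeks of age (the study's general protocol gives a range that starts there), were grown for 7 days with M-CSF at 10 ng/mL, and all received TSH, the ligand of the receptor, at 1 ng/mL for 24 h, so no library without TSH was analysed here. Livers came from male mice that were put on a high-fat diet at 6 weeks of age for 9 weeks, and all were collected after an 8 h fast and 5 min after insulin at 1.5 U/kg. Each of the 4 groups had 3 libraries. The study's methods give as many mice per group as there are libraries, but the labels tie no library to an animal, so p-values measure the spread between these libraries, which may in part be technical.

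Long noncoding RNAs are transcribed by RNA polymerase II but are not templates for a protein. *Malat1* RNA stays in the nucleus, in the speckles that hold splicing factors, and *Neat1* RNA is the scaffold of paraspeckles, nuclear bodies built around it by RNA-binding proteins. *Gas5*, *Snhg1* and *Snhg12* host small nucleolar RNAs (snoRNAs) in their introns, and their spliced RNAs have start sites rich in pyrimidines and are degraded during translation by nonsense-mediated decay. *Meg3*, *H19* and *Kcnq1ot1* are imprinted: *Meg3* and *H19* are made from the maternal chromosome, and *Kcnq1ot1* from the paternal one, where it silences its neighbours.

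The ends of *Malat1* and *Neat1* are shown because they set both RNAs apart from messenger RNA. Their long forms are cut at the 3' end by RNase P and are protected by a triple helix of T-rich (U-rich in the RNA) and A-rich stretches in place of a poly(A) tail. *Malat1* is a 6983-base gene with GENCODE M21 coordinates chr19:5795690-5802672 on the minus strand, and *Neat1* a 20771-base gene at chr19:5824708-5845478 on the same strand. In the last 400 bases of their longest annotated transcripts, the longest stretch that both shared was 16 bases, and the longest shared stretch after it was 11 bases. Both are in capitals in the 110 bases up to the end of the A-rich stretch (GRCm38, GENCODE M21 transcripts, chr19:5795982-5796091, minus strand and chr19:5824708-5824817, minus strand):
Malat1: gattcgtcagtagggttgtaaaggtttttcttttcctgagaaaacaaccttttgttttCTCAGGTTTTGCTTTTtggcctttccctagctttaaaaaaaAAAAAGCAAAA
Neat1: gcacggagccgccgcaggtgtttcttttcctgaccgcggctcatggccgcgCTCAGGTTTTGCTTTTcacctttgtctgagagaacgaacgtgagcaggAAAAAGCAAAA
The annotated *Malat1* transcript went on for 292 bases after the A-rich stretch, whereas that of *Neat1* ended with it.

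Promoters are shown because TSH acts through its receptor on cyclic AMP, whose response element has the core letters TGACGT. RefSeq windows of 300 bases (250 before the start and 50 from it, GRCm38.p6) were found for 6 of the 8 members, with 2 windows each for *Gas5* and *Meg3*, but not for *Neat1* and *H19*. The letters TGACGT, searched on both strands, were in windows of 4 members, *Malat1*, *Meg3*, *Gas5* and *Kcnq1ot1*, and in 7.51% of all 32851 mouse windows. The full palindrome TGACGTCA was in windows of *Meg3* and *Gas5* and in 1.79% of all windows. Searched in the same way, the TATA box (TATAAA, 13.6% of all windows) was in windows of *Meg3* and *Snhg1*, the CCAAT box (37.4%) in those of *Meg3* and *Kcnq1ot1*, and the GC box (GGGCGG, 35.7%) in those of *Gas5* and *Snhg1*. The E-box (CACGTG, 7.15%) and the AP-1 letters (TGANTCA, 7.81%) were in none. TGACGT lies inside TGACGTCA, and the *Snhg12* window held none of these letters. A match describes the letters of the window and not the binding of a factor. The *Malat1* window (chr19:5802623-5802922, minus strand) held TGACGT on the plus strand of the gene 45 bases before the start and its reverse complement ACGTCA 155 bases before it, both in capitals:
Malat1: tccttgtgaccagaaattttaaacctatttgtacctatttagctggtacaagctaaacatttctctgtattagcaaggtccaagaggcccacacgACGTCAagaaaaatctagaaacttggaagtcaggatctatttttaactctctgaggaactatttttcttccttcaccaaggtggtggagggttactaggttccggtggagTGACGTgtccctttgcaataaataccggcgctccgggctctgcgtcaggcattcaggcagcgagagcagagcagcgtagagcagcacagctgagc
The 100 bases around the starts of *Gas5* (the window of its downstream start, chr1:161035096-161035195, plus strand), *Meg3* (chr12:109540926-109541025, plus strand) and *Kcnq1ot1* (chr7:143296518-143296617, minus strand) are marked in the same way:
Gas5: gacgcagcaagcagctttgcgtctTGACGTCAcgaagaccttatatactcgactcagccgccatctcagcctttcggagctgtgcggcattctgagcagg
Meg3: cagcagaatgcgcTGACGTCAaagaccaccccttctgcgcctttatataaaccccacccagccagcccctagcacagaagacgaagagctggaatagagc
Kcnq1ot1: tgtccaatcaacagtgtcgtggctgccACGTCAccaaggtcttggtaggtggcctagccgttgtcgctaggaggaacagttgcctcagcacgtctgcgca

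The start sites of the snoRNA hosts are shown for their pyrimidines. In the 30 bases around the starts of *Gas5* (chr1:161035156-161035185, plus strand), *Snhg1* (chr19:8723477-8723506, plus strand) and *Snhg12* (chr4:132308668-132308697, plus strand), capitals mark the longest run of C and T that touches the 5 bases on either side of the start:
Gas5: ccatctcagCCTTTCggagctgtgcggcat
Snhg1: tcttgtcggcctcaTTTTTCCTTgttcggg
Snhg12: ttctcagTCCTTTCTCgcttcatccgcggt
The runs were 9 bases long in *Snhg1* and *Snhg12*, a length reached by 6.65% of all windows, and 6 bases in *Gas5*, reached by 20.2%. The median over all windows was 3 bases.

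Libraries held 28962878 to 40954211 counts. *Tshr* had 0 counts in each of the 6 livers and 0 to 5 in the BMDMs, so the deletion could not be checked. Markers of the labelled tissues were present: the sum of 12 macrophage markers was 17573 to 33429 CPM (scaled by TMM within a tissue) in BMDMs, and that of 10 hepatocyte markers was 78022 to 100830 CPM in livers and 0 to 0.24 CPM in BMDMs. *Tshr* f/f BMDM replicate 3 stood apart, with a TMM factor of 0.738 against 0.993 to 1.114 in the other BMDMs, and with 18720 CPM over 12 interferon and NF-κB target genes. *Tshr* f/f BMDM replicate 1 had 5855 CPM over these genes, and the other 4 BMDM libraries 1225 to 1375 CPM. The study's own listing of receptor counts places the liver libraries under the opposite genotype headings. Of 72 listed values compared with the count table, 72 equalled a count of a library labelled with the other group and 8 also one of the same group, so each direction in liver follows the sample labels and has the opposite sign under the other reading.

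To compare levels between the RNAs, CPM scaled over all 12 libraries were divided by the length of the exons in kilobases. In BMDMs the order was *Malat1* (74.5 ± 22.4 CPM per kilobase, SD, n = 6), *Neat1* (22.5 ± 3.31), *Gas5* (9.47 ± 1.00), *Snhg1* (4.26 ± 0.618), *Snhg12* (2.22 ± 0.347), *H19* (1.74 ± 1.32), *Meg3* (0.255 ± 0.0698) and *Kcnq1ot1* (0.0452 ± 0.0102). Of these neighbours, only the ranges of *Snhg12* and *H19* overlapped over the 6 libraries. In livers *Neat1* (22.3 ± 5.01), *Malat1* (21.5 ± 6.05) and *Gas5* (20.5 ± 1.42) were at one level on this scale, with overlapping ranges. They were followed by *Snhg12* (4.10 ± 0.524), *Snhg1* (3.66 ± 0.471), *H19* (0.944 ± 1.91), *Meg3* (0.0763 ± 0.0354) and *Kcnq1ot1* (0.0259 ± 0.0131), each of which overlapped the next in range. *Kcnq1ot1* is annotated as 1 exon of 93092 bases, so its level per length was spread over a long span. The length taken matters elsewhere too. By the longest transcript, the *Gas5* means were 29.5 (*Tshr* f/f) and 30.8 (*Tshr* MKO) in livers, against 18.7 and 25.9 for *Neat1*. *Neat1* has 4 annotated transcripts and was divided by all 20771 bases, which gives too low a level if a shorter one was mostly read. Which transcripts were read, and the effect of a missing poly(A) tail, was not tested.

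**Figure D1:**
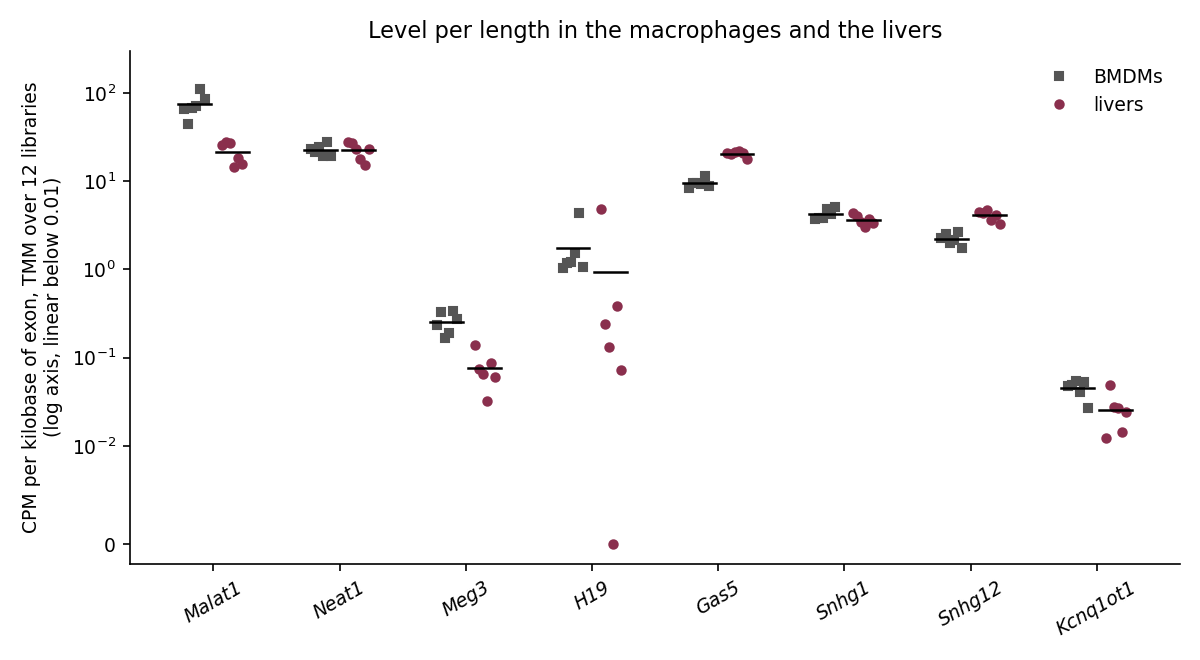
CPM per kilobase of exon (log axis, linear below 0.01) of the 8 RNAs in 6 BMDM and 6 liver libraries, with a line at each mean. *Malat1* and *Meg3* lay higher in every BMDM library than in any liver, *Gas5* and *Snhg12* lay lower on this scale, and *Neat1* overlapped.

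Between the tissues, the level of *Malat1* was 311.7 to 777.8 CPM in BMDMs (median 489.1) and 99.86 to 193.4 CPM in livers (median 154.3), a ratio of means of 3.47. *Meg3* had 3.04 to 6.07 CPM (median 4.63) against 0.588 to 2.50 CPM (median 1.27), a ratio of 3.34. *Gas5* was on the other side, with 31.8 to 42.6 CPM in BMDMs (median 35.2) and 67.1 to 81.6 CPM in livers (median 78.1), 2.17 times the BMDM mean. *Snhg12* had 4.16 to 6.43 CPM in BMDMs (median 5.34) and 7.94 to 11.2 CPM in livers (median 10.2), 1.84 times the BMDM mean. *Neat1* had a mean of 468 CPM in BMDMs and 463 CPM in livers. *Malat1* and *Meg3* were above in all 6 BMDMs, as were 27.9% of the 17246 genes compared, and *Gas5* and *Snhg12* in all 6 livers, as were 32.4% (60.3% together). The scale decided some of the order: the factors were 1.00 to 1.54 in BMDMs and 0.667 to 0.768 in livers, and with library totals alone *Gas5* and *Snhg12* overlapped between tissues, *Snhg12* was no longer lower in BMDMs (log2 difference 0.04) and *Neat1* had a log2 difference of 0.93 toward BMDMs, with overlap. With these totals the log2 difference between tissues grew to 2.68 for *Malat1* and from 1.74 to 2.64 for *Meg3*, and *Snhg1* lay above in all 6 BMDMs (1.09). A list of hepatic stellate and fibroblast markers summed to 680.3 to 2677 CPM in BMDMs, against 36.9 to 323.0 CPM in livers (scaled within a tissue). Of this list, *Lrat* had 0 counts and *Reln* 0 to 4 in BMDMs, against 42 to 482 and 156 to 2338 in livers. The BMDM sum thus came from the other genes of the list, such as *Col1a1* and *Col1a2*. The part of other cells in the levels of the 8 RNAs was not tested.

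*Malat1*, the nuclear speckle RNA, differed between the genotypes most clearly in liver. It had 2209, 3422 and 2419 counts in *Tshr* f/f livers and 4679, 5856 and 4006 in *Tshr* MKO livers, which is 74.8, 94.3 and 80.3 CPM against 130.7, 139.4 and 141.8 CPM. All 3 *Tshr* MKO livers lay above all 3 *Tshr* f/f livers, by 1.65-fold on average (log2 difference 0.72, SE 0.11). Separate groups in this direction were found for 9.60% of the genes tested in liver and in the other direction for 7.74% (17.3% together). In edgeR's quasi-likelihood test *Malat1* had an unadjusted p of 0.000315, rank 11 of the 15062 genes tested, and an adjusted p of 0.303. In this test 0 genes (0.00%) passed an adjusted p of 0.05 in liver, while 1574 (10.5%) had an unadjusted p under 0.05 and DESeq2 called 269. With DESeq2 the adjusted p of *Malat1* was 8.368e-05, and over all 15 alternatives it ranged from there to 0.687, with a log2 difference of 0.65 to 0.82. The share of counts in mitochondrially encoded genes also separated these livers, at 5.55 to 6.80% in *Tshr* f/f and 7.72 to 8.15% in *Tshr* MKO, and its part in the result was not tested. In whole livers, fewer cells of a type and less RNA per cell cannot be told apart. The macrophage markers overlapped between the genotypes (224.6 to 585.8 CPM and 223.8 to 514.1 CPM), and 1 of 12 had a positive and 11 a negative log2 difference, with none past an unadjusted p of 0.05. Neutrophil markers, with 7 of 7 tested at a negative value and 2 lower at that limit, summed to 108.2, 32.2 and 8.89 CPM in *Tshr* f/f livers and to 10.4 to 18.5 CPM in *Tshr* MKO livers, which overlapped.

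In BMDMs the direction was the opposite of that in the livers as labelled, and the same as theirs if the liver labels are exchanged. *Malat1* counts were 27117, 46813 and 21137 for the *Tshr* f/f BMDMs (680.8, 1072 and 811.7 CPM) against 23828, 15934 and 26474 for *Tshr* MKO (622.2, 425.0 and 638.0 CPM). Each *Tshr* f/f library was above each *Tshr* MKO library on this scale, although not with library totals alone. Separate groups were found in this direction for 14.0% of the genes tested and in the other for 14.8% (28.7% together). The log2 difference was -0.61 (SE 0.26) and did not pass the test (edgeR, unadjusted p of 0.058, adjusted p = 0.289). Here too 0 of 15372 genes (0.00%) passed an adjusted p of 0.05, 2756 (17.9%) had an unadjusted p under 0.05, and DESeq2 called 1223. *Tshr* f/f replicate 2, with the highest value, also had the highest sum over the stellate and fibroblast list, of which BMDMs held mainly collagen and other fibroblast genes. That sum was 2677 CPM against 680.3 to 1366 CPM in the other 5 BMDMs. Without replicate 2 the log2 difference was -0.41. Without replicate 3, which stood apart, it was -0.64. The sum of the 12 macrophage markers also separated the BMDMs, at 17573 to 19414 CPM with *Tshr* f/f and 22695 to 33429 CPM with *Tshr* MKO (2 of 12 higher and 1 lower at an unadjusted p of 0.05). The largest of the 12 in each library was *Lyz2*, whose promoter drives Cre, with 353336, 429799 and 228462 counts against 618462, 545044 and 926213. The 12 did not move together: 4 lay above in all *Tshr* MKO libraries and 2 in all *Tshr* f/f libraries. The part of the sum in the *Malat1* value was not tested.

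The difference between the tissues was tested itself. The *Tshr* MKO minus *Tshr* f/f log2 difference of *Malat1* was lower in BMDMs than in livers by 1.33 (SE 0.29), with an unadjusted p of 0.000932 and an adjusted p of 0.141 (edgeR, 12 libraries). Of 17246 genes, 1 (0.00580%) passed an adjusted p of 0.05, and 14.5% an unadjusted p of 0.05, 7.12% with a higher and 7.42% with a lower value in BMDMs. With DESeq2 the adjusted p of *Malat1* was 0.001495, and over the 19 alternatives that kept the sample labels the value was -1.46 to -1.14 with an adjusted p of up to 0.308. With the liver genotype labels exchanged, as the receptor listing has them, the value was 0.14 (SE 0.29, adjusted p = 0.894), so the difference between tissues rests on the liver labels. Among the 13244 genes that passed the filter in both tissues, 1.22% had, like *Malat1*, groups that did not overlap with *Tshr* f/f above in BMDMs and *Tshr* MKO above in livers, and 2.60% had separate groups on opposite sides in the 2 tissues. With the liver labels exchanged, *Malat1* and the other genes of that 1.22% would instead have *Tshr* f/f above in both tissues. As labelled, 1.07% of the genes had *Tshr* f/f above in both.

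**Figure D2:**
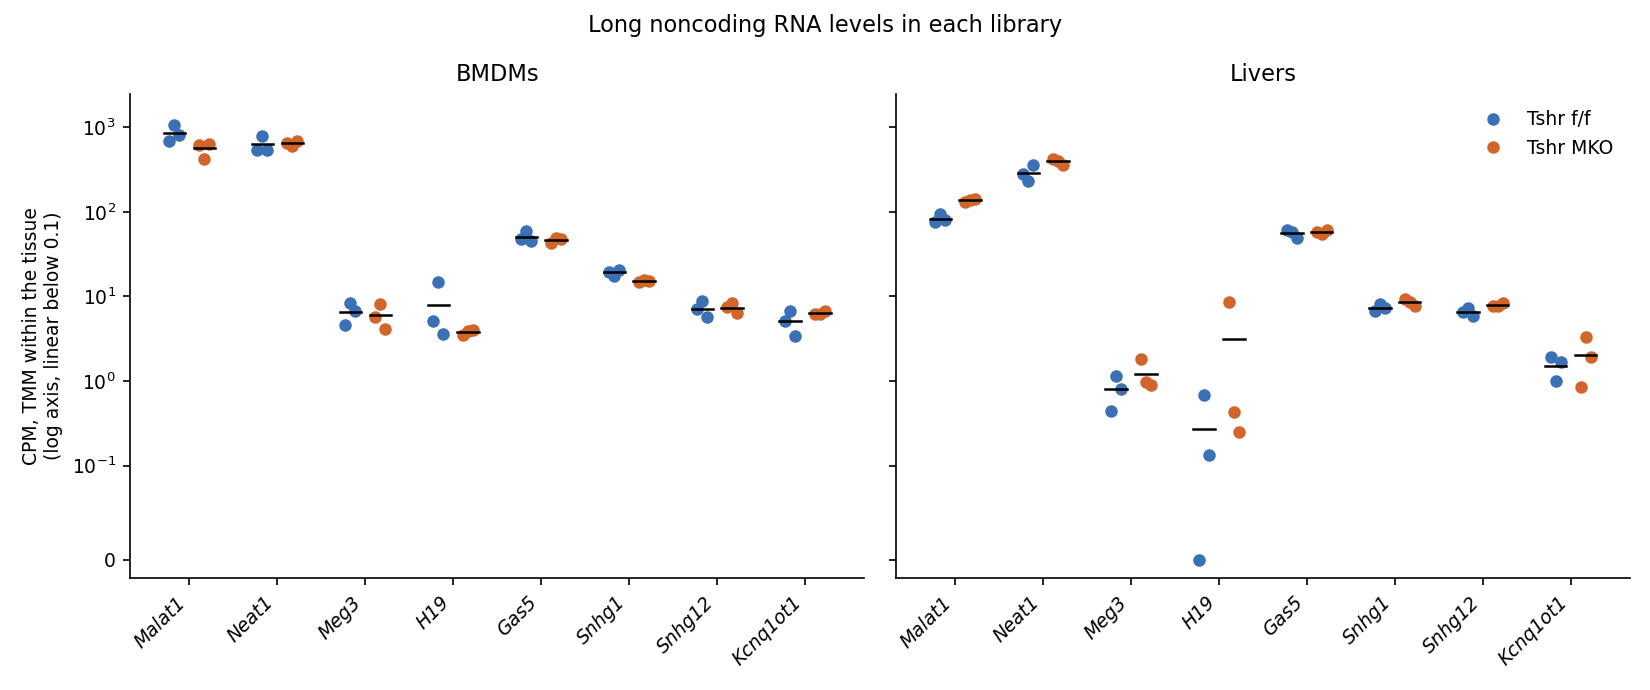
CPM of the 8 RNAs in each library (points) with the group mean (line), on a log axis that is linear below 0.1, for BMDMs (left) and livers (right). *Malat1* is lower in the *Tshr* MKO BMDMs and higher in the *Tshr* MKO livers, and 1 *Tshr* MKO liver stands out for *H19* at 8.63 CPM.

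*Neat1*, the paraspeckle scaffold, had 8173, 8331 and 10727 counts in *Tshr* f/f livers and 15040, 16877 and 10139 in *Tshr* MKO livers (276.6, 229.7 and 355.9 CPM against 420.2, 401.8 and 358.9 CPM). The groups just separated, at 355.9 and 358.9 CPM, and overlapped with library totals alone. Of the genes tested in livers, 9.60% had groups separated in this direction. The log2 difference of *Neat1* was 0.45 (SE 0.17, edgeR, unadjusted p of 0.0337, adjusted p = 0.437). In replicate order, the sample IDs start with A, A and B in *Tshr* f/f livers and with B, B and A in *Tshr* MKO livers. With this letter as a covariate the value was 0.36 for *Neat1* and 0.75 for *Malat1*. In BMDMs *Neat1* had 540.8, 793.8 and 539.9 CPM with *Tshr* f/f against 657.0, 606.9 and 679.6 CPM with *Tshr* MKO, with overlapping groups and a log2 difference of 0.05 (SE 0.22, adjusted p = 0.908). That value was -0.04 without *Tshr* f/f replicate 3 and 0.26 without replicate 2.

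The ratio of *Malat1* to *Neat1* counts, both read in the same library, does not depend on the scaling. It was 1.26, 1.35 and 1.50 with *Tshr* f/f against 0.947, 0.700 and 0.939 with *Tshr* MKO in BMDMs, so every *Tshr* f/f library had more *Malat1* than *Neat1* reads and every *Tshr* MKO library fewer. The log2 ratio was lower in *Tshr* MKO by 0.68, with an exact two-sided permutation p of 0.1, the smallest that 3 against 3 libraries allow, and stayed at -0.75 to -0.54 with any library left out. In livers the ratio was 0.270, 0.411 and 0.226 in *Tshr* f/f and 0.311, 0.347 and 0.395 in *Tshr* MKO, and the groups overlapped (log2 difference 0.26, exact permutation p = 0.5). Thus *Neat1* reads outnumbered those of *Malat1* in all 6 livers. *Neat1* is the longer gene, so a read ratio of 1 does not mark equal levels. Per kilobase of exon the ratio was 3.74 to 4.47 in *Tshr* f/f BMDMs, 2.08 to 2.82 in *Tshr* MKO BMDMs and 0.671 to 1.22 in livers.

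**Figure D3:**
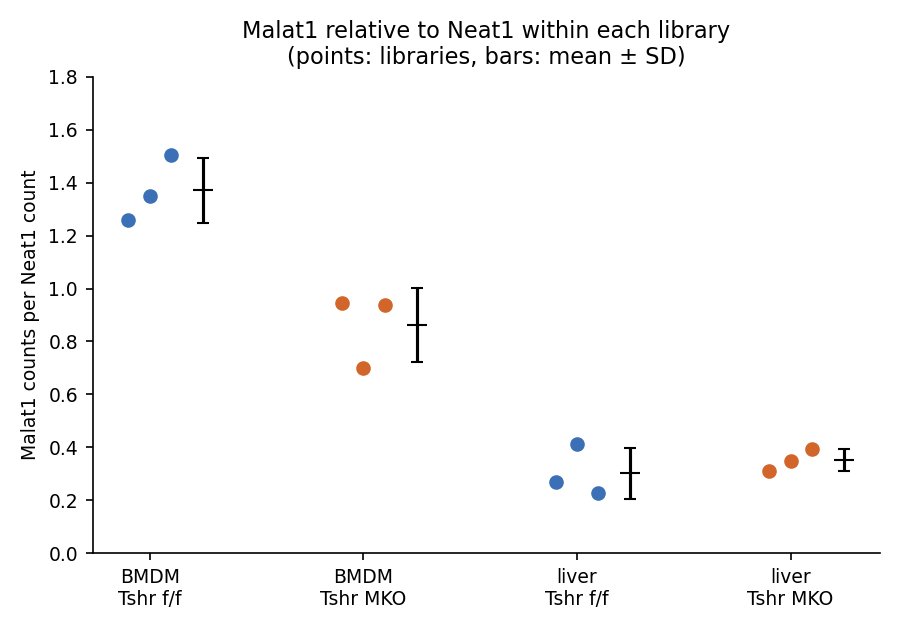
*Malat1* counts per *Neat1* count in each library, with the mean ± SD of each group beside the points. The *Tshr* f/f BMDMs lie at 1.26 to 1.50, the *Tshr* MKO BMDMs at 0.700 to 0.947 and the 6 livers at 0.226 to 0.411.

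None of the 3 snoRNA hosts passed an adjusted p of 0.05 between the genotypes in edgeR or DESeq2, and 1, *Snhg1* in BMDMs, had an unadjusted p under 0.05 in edgeR. Over all genes tested, 17.9% had such an unadjusted p in BMDMs and 10.5% in livers. For *Snhg1* the *Tshr* f/f BMDMs were at 19.6, 17.3 and 20.8 CPM, against 14.9, 15.6 and 15.1 CPM for *Tshr* MKO. These groups did not overlap, and 14.0% of the genes tested in BMDMs had groups separated in this direction. The log2 difference of -0.34 (SE 0.13) had an unadjusted p of 0.0372 and an adjusted p of 0.261 in edgeR. With library totals alone the groups overlapped and the value was -0.15. In livers *Snhg1* had 6.77, 8.05 and 7.33 CPM against 9.33, 8.69 and 7.75 CPM, a log2 difference of 0.22 (SE 0.15), and the difference between the tissues was -0.56 (SE 0.19, adjusted p = 0.240), or -0.10 with the liver labels exchanged. *Gas5* had the smallest genotype difference of the members in livers, though not in BMDMs. It had 61.0, 57.0 and 49.3 CPM in *Tshr* f/f livers and 57.0, 55.2 and 61.2 CPM in *Tshr* MKO livers, and 44.7 to 58.7 CPM against 43.2 to 48.7 CPM in BMDMs. Its log2 differences were 0.05 (SE 0.10) in livers and -0.11 (SE 0.14) in BMDMs. *Snhg12* had 6.57, 7.25 and 5.84 CPM in *Tshr* f/f livers and 7.77, 7.64 and 8.42 CPM in *Tshr* MKO livers, separate groups with a log2 difference of 0.28 (SE 0.15, adjusted p = 0.569). Of the genes tested in livers, 9.60% had groups separated in this direction. In BMDMs the *Snhg12* groups overlapped (5.65 to 8.86 CPM and 6.36 to 8.24 CPM).

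The hosts' genomic settings could bear on these counts, which was not tested. *Gas5* (chr1:161034422-161038539, plus strand) overlaps the gene *Zbtb37* on the opposite strand, which had 711 to 1233 counts in BMDMs and 124 to 244 in livers. *Snhg1* lies at chr19:8723475-8726443 and *Snhg12* at chr4:132308623-132311024, both on the plus strand. GENCODE places 23 snoRNA genes in the 3 hosts, and 21 of them (91.3%) had exactly 1 count in all 12 libraries, as 6.1% of all 1507 snoRNA genes did. A value of 1 in every library does not follow the depth, so the snoRNAs themselves were not measured by this table.

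Among 17 other snoRNA hosts in the table, 14 of the 15 tested in livers had a positive log2 difference, with a median of 0.27 against -0.01 over all genes tested. At an unadjusted p of 0.05, 3 were higher and 0 lower in *Tshr* MKO livers (5.27% and 5.18% of all genes tested), namely *Snhg6* (0.64, SE 0.23), *Snhg20* (0.52, SE 0.21) and *Snhg11* (0.83, SE 0.35). In BMDMs the median was 0.02 over 14 tested, with 8 positive, 1 higher (*Snhg20*, 0.58, SE 0.23) and 0 lower, where 7.73% of all genes were higher and 10.2% lower. Of 15 translation factors whose messages start with an oligopyrimidine tract, 0 passed an unadjusted p of 0.05 in BMDMs, and 1, *Nap1l1* (-0.30, SE 0.10), was lower in livers. Their medians were -0.01 and 0.01. Of 14 nonsense-mediated decay factors, 3 were lower in *Tshr* MKO BMDMs at that limit, among them *Magoh* (-0.39, SE 0.13) and *Rbm8a* (-0.40, SE 0.14), with a median of -0.16. In livers *Magoh*, a core protein of the exon junction complex, was the 1 called (0.41, SE 0.17) and the median was 0.04. Of 8 snoRNP proteins, which bind the snoRNAs, *Snu13* was lower in BMDMs (-0.35, SE 0.13) and *Nop10* higher in livers (0.40, SE 0.14), with medians of -0.16 and 0.14.

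**Figure D4:**
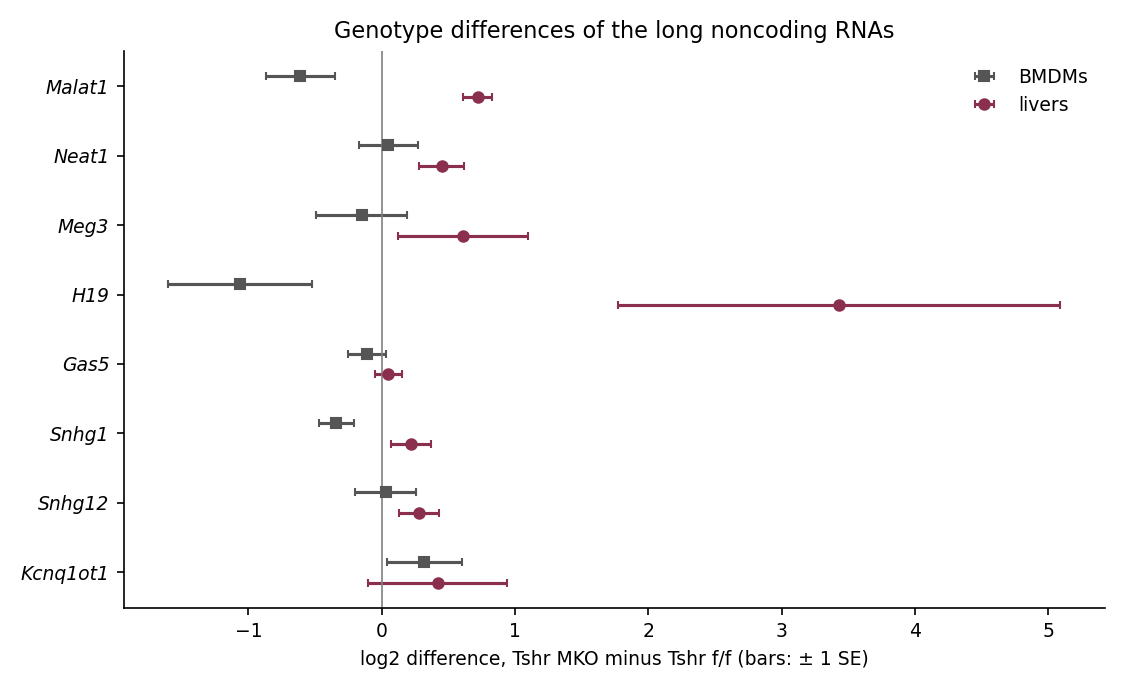
Log2 difference between *Tshr* MKO and *Tshr* f/f with its SE for each of the 8 RNAs, squares for BMDMs and circles for livers. All 8 liver values are above 0, from 0.05 for *Gas5* to 3.43 for *H19*, and 5 of the 8 BMDM values are below 0.

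Of the imprinted members, *H19* (chr7:142575529-142578143, minus strand), the fetal growth-limiting RNA and precursor of miR-675, varied most within groups. It had 0, 25 and 4 counts in *Tshr* f/f livers and 309, 18 and 7 in *Tshr* MKO livers. The high value was that of 1 library, *Tshr* MKO replicate 1, and the other 5 livers overlapped. The log2 difference was 3.43 (SE 1.66, edgeR adjusted p = 0.520), and 0.27 without that library. In BMDMs *H19* had 5.07, 15.0 and 3.57 CPM with *Tshr* f/f against 3.47, 3.92 and 3.98 CPM with *Tshr* MKO. Again 1 library was high, *Tshr* f/f replicate 2, the BMDM library with the highest sum of fibroblast genes. There the log2 difference was -1.06 (SE 0.54, adjusted p = 0.344), and -0.19 without replicate 2. The miRNA inside *H19* is printed for its seed, bases 2 to 8, in capitals (RefSeq, chr7:142577112-142577133, minus strand):
mmu-miR-675-5p: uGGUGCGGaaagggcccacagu
The row of its hairpin, *Mir675*, held 0 or 1 count in every library.

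*Meg3* (chr12:109541001-109571726, plus strand), the maternal RNA of the *Dlk1* to *Dio3* region, was read 185, 365 and 177 times in the *Tshr* f/f BMDMs, against 221, 302 and 169 times with *Tshr* MKO. In livers it had 13, 42 and 24 counts against 65, 41 and 25. The groups overlapped in both tissues, with log2 differences of -0.15 (SE 0.34) in BMDMs and 0.61 (SE 0.49) in livers, and the liver value was 0.21 without *Tshr* MKO replicate 1, the library high in *H19*. Of its 6 listed neighbours, 4 were tested in BMDMs and 2 in livers. *Rian*, made from the same chromosome as *Meg3*, had BMDM counts of 378, 622 and 226 (*Tshr* f/f) and 349, 500 and 293 (*Tshr* MKO), in both groups highest in the library highest in *Meg3*. In BMDMs *Begain* had an unadjusted p under 0.05 (higher in *Tshr* MKO, 1.31, SE 0.43, adjusted p = 0.237), and *Dlk1*, the paternal gene of the region, did not pass the test (1.10, SE 0.70). *Mirg*, a host of miRNAs further along, had 14, 11 and 12 counts in *Tshr* f/f livers and 0, 0 and 0 in *Tshr* MKO livers (edgeR, adjusted p = 0.315), and 9, 4 and 13 against 14, 27 and 0 in BMDMs. *Rian* in livers had 0, 17 and 9 against 29, 25 and 17 counts, on the other side from *Mirg* (log2 difference 1.35, SE 0.89).

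*Kcnq1ot1* (chr7:143203458-143296549, minus strand) lies antisense within *Kcnq1*. Its BMDM counts were 204, 294 and 88 for *Tshr* f/f against 235, 231 and 281 for *Tshr* MKO, a log2 difference of 0.32 (SE 0.28, adjusted p = 0.551). In livers it had 56, 36 and 50 counts against 30, 138 and 55, a difference of 0.42 (SE 0.52) that was -0.14 without *Tshr* MKO replicate 2, the high library. *Kcnq1*, a potassium channel gene on the other strand, had BMDM counts of 36, 3 and 6 against 63, 52 and 55, groups that did not overlap (1.83, SE 0.81, adjusted p = 0.295). Of all genes tested in BMDMs, 14.8% had groups separated in this direction. Of the 7 neighbours tested in BMDMs, *Cdkn1c*, a cell-cycle inhibitor silenced on the paternal chromosome, was the 1 past an unadjusted p of 0.05 (1.60, SE 0.56, adjusted p = 0.248), with 30, 30 and 10 counts against 100, 85 and 30. In livers 0 of 7 passed, and the median was 0.02. *Igf2*, the paternal growth factor next to *H19*, had 0 to 4 counts in every library, and none of the 4 neighbours of *H19* was tested. In the wider imprinted growth network (14 genes in the table), *Cdkn1c* in BMDMs and *Igf2r* in livers (-0.28, SE 0.08) were the only 2 called, with medians of 0.18 and 0.02. That is 1 of 12 tested higher in BMDMs and 1 of 11 lower in livers, beside 7.73% and 5.18% of all genes.

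The protein partners of the 2 nuclear RNAs were counted next. Of 25 nuclear speckle proteins, 4 were higher and 1 lower in *Tshr* MKO livers at an unadjusted p of 0.05, with a median of 0.09. The lowest p-values were those of *Pnn* (0.46, SE 0.11), *Luc7l3* (0.30, SE 0.08) and *Luc7l2* (0.26, SE 0.09), which take part in splicing. In BMDMs 20 of the 25 had a negative value (median -0.11) and *Srsf1*, a splicing factor, was the 1 called (-0.40, SE 0.13). Of 20 paraspeckle proteins, 3 were lower in *Tshr* MKO BMDMs, *Taf15* (-0.55, SE 0.13), *Hnrnph3* (-0.57, SE 0.16) and *Rbm12* (-0.71, SE 0.27), and 0 higher, with a median of -0.19. In livers 0 were called and the median was 0.00. These counts stand beside 10.2% lower and 7.73% higher among all genes in BMDMs and 5.18% and 5.27% in livers.

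Of 28 other long noncoding RNAs in the table, 23 were tested in BMDMs, where 8 were lower and 0 higher in *Tshr* MKO (34.8% lower, against 10.2% of all genes), with a median of -0.40. This list was chosen with earlier results of these data known. Of all 869 long noncoding genes tested in BMDMs, 53 (6.10%) were lower and 66 higher, with a median of 0.13. Within the list, the lowest p-values were those of *Mir155hg*, the host of miR-155, with 927, 422 and 3061 counts against 40, 39 and 87 (log2 difference -5.16, SE 1.05), *Ptgs2os2* (-5.74, SE 1.48) and *Mirt2* (-3.93, SE 1.02), with adjusted p of 0.218 in each. *Tshr* f/f replicate 3, the library that stood apart, was the highest for *Mir155hg*. The interferon and NF-κB targets were lower in the same direction, 8 of 12 at an unadjusted p of 0.05 with a median of -2.27, and their part in the values of these RNAs was not tested. Of 16 tested in livers, 3 were higher and 1 lower (5.27% and 5.18% of all genes tested), with a median of 0.12. The lowest p-values were those of *Mir22hg* (-0.73, SE 0.16), *Tug1* (0.35, SE 0.11) and *Oip5os1* (0.26, SE 0.09). Of 11 p53 targets, a group in which *Cdkn1a* leads, 11 had a negative value in livers (median -0.39) and 3 were called, *Cdkn1a* (-1.92, SE 0.21), *Bbc3* (-0.69, SE 0.27) and *Sesn2* (-0.54, SE 0.22), all lower, as were 5.18% of all genes. In BMDMs 6 of the 11 were positive and 5 negative (median 0.17), with 1 higher, *Sesn1* (2.17, SE 0.62), and 3 lower, led by *Cdkn1a* (-2.67, SE 0.61) and *Mdm2* (-1.27, SE 0.42), where 7.73% of all genes were higher and 10.2% lower.

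The 8 positive values in liver were set beside the whole class. Of 833 long noncoding genes tested in livers, 78 (9.36%) were higher and 13 (1.56%) lower in *Tshr* MKO at an unadjusted p of 0.05, 66.9% had a positive log2 difference, and the median was 0.21. Of 12999 protein-coding genes, 676 (5.20%) were higher and 746 (5.74%) lower, and the median was -0.02. The members thus lay on the side of most genes of their class, and the mitochondrial share given above moved with the same split of libraries. With any 1 liver left out, 45 to 91 long noncoding genes were higher and 6 to 24 lower, with a median of 0.16 to 0.24. The lowest count, 45 higher and 12 lower, came without *Tshr* MKO replicate 1. In BMDMs 66 (7.59%) of 869 were higher and 53 (6.10%) lower, with a median of 0.13, against 8.36% and 10.7% of protein-coding genes. The class was counted after the members' values were seen.

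**Figure D5:**
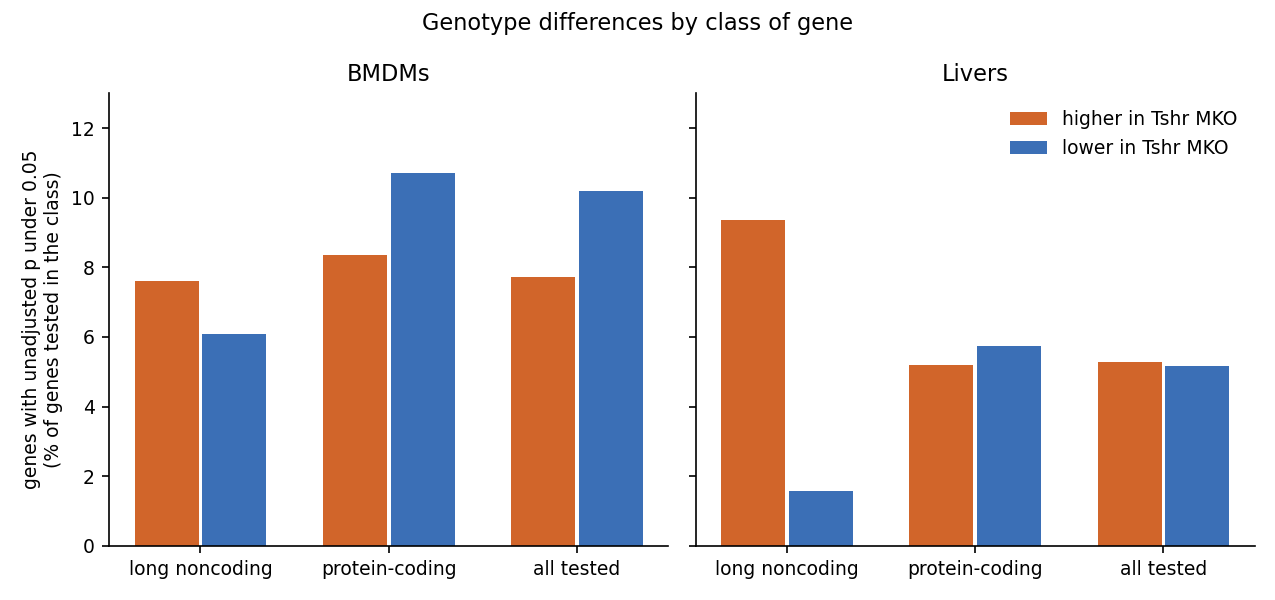
Share of the genes tested with an unadjusted p under 0.05, higher or lower in *Tshr* MKO, by class of gene, for BMDMs (left) and livers (right). In livers the long noncoding class has 9.36% higher and 1.56% lower, while the protein-coding class has 5.20% and 5.74%.

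The genes most like each member were found by Pearson's r of log2(CPM + 1), centred on the tissue mean, over 12 libraries and 13244 genes. The libraries share their depth and scaling, so r is a description. For *Malat1* they included *Acadsb* (r = 0.90) and *Ndufc2* (0.90), and for *Neat1* they were *Slc25a14* (0.92), *Epm2aip1* (0.90) and *Ttc4* (0.89). *Gas5* was nearest to *Gm11914* (0.96), *Ppp2r5b* (0.92) and *Eny2* (0.89), *Snhg1* to *Gm11878* (0.95), *Gtpbp4* (0.94) and *Gsap* (0.93), and *Snhg12* to *1700008J07Rik* (0.93), *Cox19* (0.92) and *Ndufs5-ps* (0.92). *Meg3* was nearest to *Tead1* (0.89), *Sbsn* (0.87) and *Arhgap28* (0.87), *H19* to genes including *Scd1* (0.90) and *Zswim7* (0.87), and *Kcnq1ot1* to *Ranbp6* (0.94), *Armt1* (0.90) and *Gm11451* (0.89). Among the members themselves, the closest pair was *Meg3* and *H19* (0.73), then *Gas5* and *Snhg12* (0.63) and *Malat1* and *Snhg1* (0.60), while *Malat1* and *Neat1* had 0.52.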

How the data were processed

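RNA was sequenced in strand-specific libraries on a NovaSeq instrument from 6 BMDM and 6 liver samples. The authors deposited a table of read counts per gene. They describe trimming with Skewer and FastQC 0.11.2, and the submitters' processing notes list STAR, StringTie and mm10. The methods name mRNA sequencing and a TruSeq RNA kit, but the counting program, its strand setting and how mRNA was selected were not given in the sources used here. A count that shares reads between a gene and its antisense partner, or that depends on a poly(A) tail, could differ under another pipeline.

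The test was the robust quasi-likelihood F-test of edgeR 4.0.16, in R 4.3.3, after TMM scaling and filterByExpr, within a tissue for the genotype and over 12 libraries for the difference between tissues, with Benjamini-Hochberg adjustment over all genes tested. Each SE was derived from the F statistic (the absolute log2 difference divided by its root). DESeq2 1.42.0 was an alternative, as were other scalings, filters, a replicate block and each library left out. The counts over the long noncoding class and their alternatives, and the alternatives of the *Malat1* to *Neat1* ratio and the exchange of the liver genotype labels, were chosen after seeing the data. Coordinates are those of GENCODE M21 (GRCm38), which held 55154 of the genes. Figures were made with matplotlib 3.10.9.

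The members and the gene lists were chosen with earlier results of these data known. The genes named were the members, the 3 genes most like each, genes inside or overlapping them, and the at most 3 of a list with the lowest p in a tissue. Some genes that this rule names are not reported here. A gene with 3 counts had 0.0733 to 0.104 CPM, a limit that covers counting error only.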

Additional observations from a re-analysis of the deposited data

Results flagged for a closer look

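The genotype difference of *Malat1* was lower in BMDMs than in livers by 1.33 on the log2 scale (log2 difference of differences -1.33, SE 0.29). It is given here because the edgeR test of the difference itself had an unadjusted p under 0.05, as it did for 14.5% of the genes. *Malat1* was not the only member to meet this limit. In the same test *Snhg1* had -0.56 (unadjusted p of 0.0138, adjusted p = 0.240) and *H19* -4.49 (unadjusted p of 0.0323, adjusted p = 0.308). The *H19* value was -1.32 without *Tshr* MKO liver replicate 1. The 3 *Tshr* MKO BMDMs lay below the 3 *Tshr* f/f BMDMs and the 3 *Tshr* MKO livers above the 3 *Tshr* f/f livers. The edgeR p was 0.000932 and the adjusted p 0.141, so the difference did not pass the correction over 17246 genes. The adjusted p was 0.001495 with DESeq2. The value rests on the liver genotype labels, which the study's receptor listing gives the other way around: with them exchanged it was 0.14 (SE 0.29), with an adjusted p of 0.894. BMDMs were cultured with TSH and livers came from mice on a high-fat diet, so tissue, diet, culture and TSH cannot be told apart in it.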

How the results depend on the processing

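The number of genes past an adjusted p of 0.05 depended on the tool and the libraries. In BMDMs it was 0, and 1223 with DESeq2, 150 with all 12 libraries in one fit, 1 with the replicate block and 0 to 13 with a library left out. In livers it was 0, and 269 with DESeq2, 1 with no filter on low counts and 0 to 7 with a library left out. For the difference between tissues it was 1, and 774 with DESeq2, 3 with upper-quartile scaling, 2 with library totals alone, 0 with the replicate block and 0 to 341 with a library left out, the highest without *Tshr* f/f BMDM replicate 2. Library totals alone moved the median of all genes by 0.17 in BMDMs and by 0.14 in the difference between tissues, and with them the BMDM values were 0.03 for *Meg3* and 0.04 for *Gas5*, and the level of *Snhg12* in BMDMs against livers 0.04. The sign also turned with a library left out for *Neat1* (-0.04 to 0.26), *Meg3* (-0.42 to 0.07), *Gas5* (-0.18 to 0.02) and *Snhg12* (-0.11 to 0.21) in BMDMs, for *Gas5* (-0.04 to 0.11) and *Kcnq1ot1* (-0.14 to 0.79) in livers, for *Kcnq1ot1* between tissues (-0.48 to 0.47), and for the level of *Neat1* in BMDMs against livers (-0.08 to 0.09). With the liver genotype labels exchanged, an alternative chosen after seeing the data, 2 genes passed, and the values between tissues turned to 0.14 for *Malat1*, 0.53 for *Neat1*, 0.49 for *Meg3*, 2.41 for *H19*, 0.33 for *Snhg12* and 0.78 for *Kcnq1ot1*. *Malat1* kept its sign in each other alternative run. The cause was not tested. Same-numbered libraries did not deviate together in each pair (r = 0.15, 0.04 and 0.12 in BMDMs, -0.08, 0.25 and -0.03 in livers), so the numbers were not taken as pairs, and not every library correlated best with its own number. With the replicate block the *Kcnq1ot1* value between tissues was 0.09 and that of *H19* went from -4.49 to -2.90. *H19* between tissues, *Snhg1* in BMDMs and *Neat1* in livers were then no longer under an unadjusted p of 0.05 (0.223, 0.0937 and 0.0502), and no member passed an adjusted p of 0.05 with or without the block.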
